A study of Mus musculus with 6 samples.

Results

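The cytosolic ribosomal protein genes were described in RNA from the mouse orbitofrontal cortex after knockdown of circHomer1a, a circular transcript of Homer1. Members were chosen by symbol: every listed gene named Rpl or Rps with a number, and Rplp0, Rplp1, Rplp2 and Rpsa, without the Rps6k kinases and Rps19bp. The choice used no expression values, but earlier results of these data were known when it was made. The rule found 82 of 13348 listed genes, 32 of the small and 50 of the large subunit. The knockdown group held 3 libraries from C57BL/6 mice whose orbitofrontal cortex had been injected with a lentivirus carrying a short hairpin RNA (shRNA) against the circHomer1a splice junction. The control group held 3 libraries from C57BL/6 mice; the series title calls it a scrambled shRNA control, and its injection is not described further. All mice were 12 weeks old. The labels name neither the cells that the virus reached nor separate animals for the 3 samples of a group, so the spread behind the p-values may be technical only. The whole tissue was taken, so fewer cells of a type and less RNA per cell cannot be told apart. Values are FPKM (fragments scaled to the length of the feature and to the number of mapped fragments) as deposited. The number of reads per library was unknown, and no feature listed measured the circular RNA, so the knockdown itself was not checked here.

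Each eukaryotic ribosome has a small subunit, which holds the messenger RNA and reads its codons, and a large subunit, which joins amino acids. Each subunit is a core of ribosomal RNA dressed with ribosomal proteins that are needed in near equal numbers. In mammals the messenger RNAs of these proteins begin with a terminal oligopyrimidine (TOP) tract, an unbroken run of C and T that starts with C, through which mTOR signalling and Larp1 control their translation as a group. In neurons some of these messenger RNAs are also found in axons and dendrites.

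The sequences around the start sites are shown because the tract lies there. Whether the tract bears on the RNA levels was not tested. Each window runs from 30 bases before to 20 bases after the start annotated by RefSeq on GRCm38.p6, on the gene's strand. Capitals mark the longest run of C and T that starts with C within 5 bases of the annotated start. The windows lie at chr4:86857348-86857397 (Rps6, minus strand), chr7:109519165-109519214 (Rpl27a, plus strand), chr7:45128726-45128775 (Rpl13a, minus strand), chr3:28805478-28805527 (Rpl22l1, plus strand), chr17:24720033-24720082 (Rps2, plus strand) and chr17:46782637-46782686 (Rpl7l1, minus strand).
Rps6: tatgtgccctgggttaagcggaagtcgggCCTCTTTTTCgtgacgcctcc
Rpl27a: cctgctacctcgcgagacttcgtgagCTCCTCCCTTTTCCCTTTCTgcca
Rpl13a: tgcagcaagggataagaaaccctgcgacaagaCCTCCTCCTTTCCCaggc
Rpl22l1: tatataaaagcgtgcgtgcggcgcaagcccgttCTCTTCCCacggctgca
Rps2: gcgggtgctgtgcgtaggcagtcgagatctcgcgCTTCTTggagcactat
Rpl7l1: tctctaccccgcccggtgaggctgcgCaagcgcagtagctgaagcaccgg

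The first 5 windows hold a run of at least 6 C or T and the last holds none. Of the 82 genes, 62 had an entry in the RefSeq table, and 24 of these 62 (38.7%) held such a run, against 10.2% of all 32851 promoters in it. For each member only the entry nearest the 5′ end of its leading transcript was used. The comparison counts every entry of every gene, expressed here or not, so these shares and those below rest on unlike selections. The motif CCGGAAG, searched on both strands from 250 bases before to 50 bases after the start, was in 23 of the 62 (37.1%) and in 8.86% of all promoters. GGGCGG was in 39 of the 62 (62.9%) and in 35.7% of all, and TATAAA in 6 (9.68%) and in 13.6%. The annotated start lay within 5 bases of the 5′ end of the leading deposited transcript in 19 of the 62 genes, so a run can be missed where the start is placed off. Rps6, Rpl27a and Rps2 of the windows above carry CCGGAAG in the wider stretch.

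Ribosomal protein genes were among the most abundant messages of this tissue. Their median gene level was 115 FPKM over the 6 libraries, against 6.58 FPKM over all 11961 tested genes, and 46 of the 82 lay above 100 FPKM. Gene levels of the small subunit ran from 17.4 FPKM (Rps27l) to 698 FPKM (Rps15), with a median of 115 FPKM. In the large subunit they ran from 0.407 FPKM (Rpl3l) to 870 FPKM (Rplp1), with a median of 116 FPKM. Rplp1, a protein of the flexible stalk that draws elongation factors to the ribosome, was at 759, 725 and 907 FPKM in knockdown 1, 2 and 3 and at 767, 1173 and 886 FPKM in control 1, 2 and 3. Rps15, a protein of the small subunit head, was at 605, 583 and 706 FPKM in the knockdown libraries and at 667, 933 and 694 FPKM in the controls. Rpl17, which lines the exit tunnel, and Rpl36 followed at 464 and 460.0 FPKM over all libraries, and control 2 was the highest library for all 4.

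The order of the levels differed between the deposited gene values and the sums of the deposited transcript values. How the authors' software set the length behind a gene value is not given in the sources used here. The median gene value was 0.514 times the sum of its listed transcripts. Rps24, known for alternative splicing of its last exons, was at 55 to 61 FPKM in group means as a gene and at 574 FPKM as a sum of its 5 listed transcripts, which put it at rank 65 of 82 by gene value and at rank 5 by transcript sum. For Rps20, a head protein that is ubiquitinated on stalled ribosomes, the only listed transcript was 3706 bases long, and its level was low on both scales, at 26.4 FPKM and 28.1 FPKM. Levels of different members are therefore set side by side only as deposited, and the group comparison below was made within each gene. In GENCODE M21, 60 of the 82 genes had at least 1 pseudogene named after them, 292 in all, and reads shared with such copies make single gene levels uncertain.

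**Figure D1:**
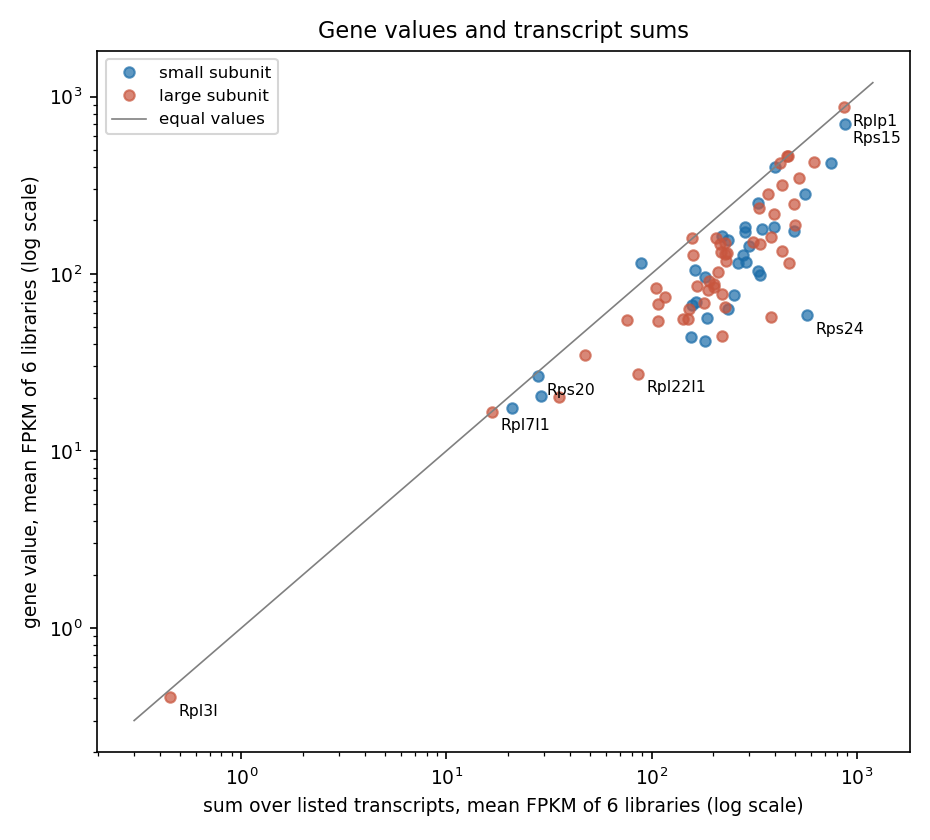
Mean FPKM over the 6 libraries of each ribosomal protein gene, as the deposited gene value (vertical, log scale) against the sum of its listed transcripts (horizontal, log scale); each point is a gene, blue for the small and red for the large subunit, and the grey line marks equal values. Most points lie below the line, and Rps24 lies farthest below it, with 574 FPKM as a sum.

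The whole set varied together from library to library. Summed over the 82 genes, the level was 11530.3, 10989.5 and 12883.5 FPKM in knockdown 1, 2 and 3, against 11716.9, 16338 and 12870.0 FPKM in control 1, 2 and 3. That was 4.50%, 4.23% and 4.65% of all listed FPKM in the knockdown libraries and 4.43%, 5.72% and 4.66% in the controls. Control 2 stood above every other library, and the other 5 libraries of both groups overlapped. Control 2 was the highest library for 80 of the 82 genes, all 32 of the small subunit and 48 of the large. The exceptions were Rpl7l1, highest in knockdown 2, and Rpl3l, highest in control 1. Knockdown 2 was the lowest library for 60 of the 82 genes, control 1 for 12, knockdown 1 for 9 and knockdown 3 for 1.

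The small and large subunits gave nearly the same profile. Small subunit genes summed to 4383.28, 4128.52 and 4887.18 FPKM in knockdown 1, 2 and 3 and to 4476.59, 6226.37 and 4824.59 FPKM in control 1, 2 and 3. Large subunit genes summed to 7147.05, 6861.01 and 7996.33 FPKM in the knockdown libraries and to 7240.34, 10111.6 and 8045.36 FPKM in the controls. The ratio of the small to the large sum was 0.609 ± 0.00616 in knockdown and 0.611 ± 0.0101 in control libraries (SD, n = 3 each), and over single libraries it ran from 0.600 (control 3) to 0.618 (control 1). In control 2, where both sums were highest, the ratio was 0.616. On the log2 scale, the median small subunit gene deviated from its own mean by -0.13, -0.19 and 0.05 in knockdown 1, 2 and 3 and by -0.10, 0.35 and 0.03 in control 1, 2 and 3. The median large subunit gene deviated by -0.13, -0.17 and 0.03 in the knockdown libraries and by -0.09, 0.37 and 0.04 in the controls.

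**Figure D2:**
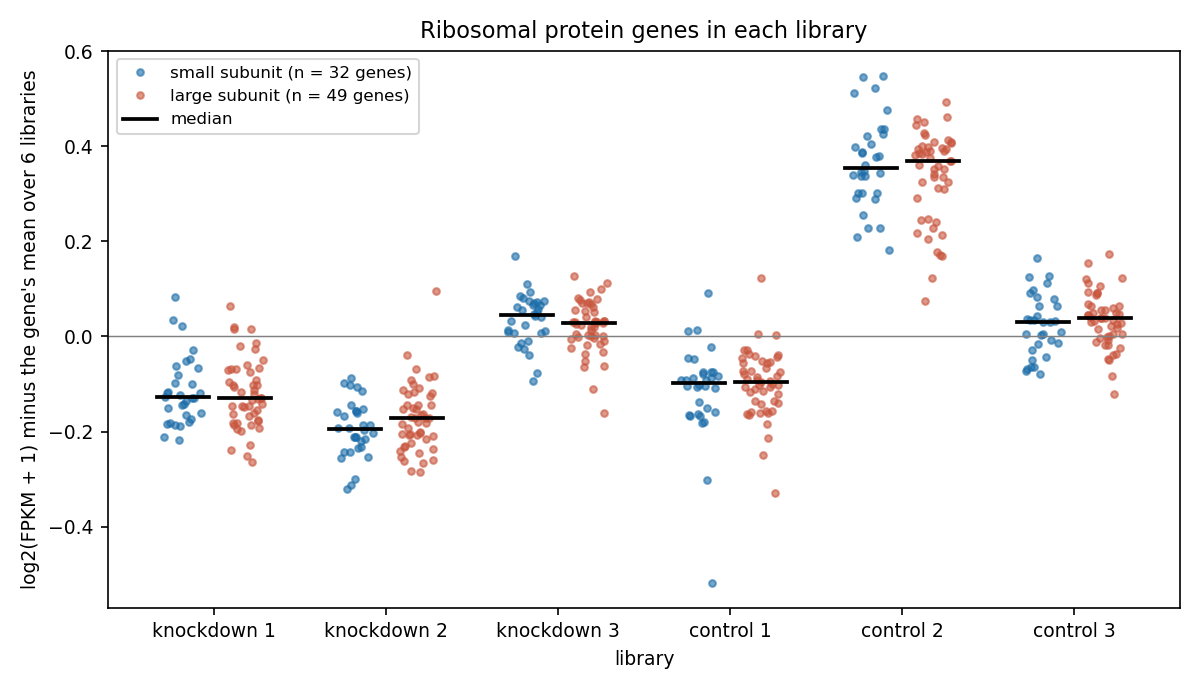
Deviation of each tested ribosomal protein gene from its own mean over the 6 libraries, as log2(FPKM + 1) (vertical), by library (horizontal); points are genes, blue for the small and red for the large subunit, and black lines are medians. The points of control 2 sit highest, with medians of 0.35 and 0.37, and those of knockdown 2 lowest.

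No ribosomal protein gene passed the test of knockdown against control. Of the 82 genes, 81 had a mean of at least 1 FPKM and entered the limma fit over 11961 genes, all but Rpl3l. None of the 81 had an adjusted p under 0.05 (limma, Benjamini-Hochberg), and the background share over all tested genes was 0%. Adjusted p-values of the 81 lay between 0.948 and 0.998. The log2 fold change (knockdown minus control, of FPKM + 1) was below zero in 80 of the 81, 98.8%, against 44.3% of all tested genes. Its median was -0.19, the same in the small subunit (-0.19, 32 of 32 below zero) and in the large (-0.19, 48 of 49), against 0.02 over all tested genes. An unadjusted limma p under 0.05 with a lower level was reached by 3 of the 81 (3.7%), against 1.5% of all tested genes. The knockdown values lay below every control in 4 of the 81 (4.94%), against 3.47% of all tested genes, so for the other 77 the groups overlapped. The median half-width of the 95% interval was 0.33 for the 81, wider than the median difference.

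That difference rested largely on control 2. Without it, 66 of the 81 fold changes were below zero, where 47.9% of all tested genes were, and the median was -0.06 (-0.05 in the small and -0.06 in the large subunit). The knockdown values then lay below the remaining controls in 4 of the 81, where 7.04% of all tested genes did, and above them in 1, Rpl10, where 7.07% of all tested genes did. Without control 1 the median was -0.29, 81 of 81 were below zero (42.6% of all tested genes), 17 had an unadjusted p under 0.05 with a lower level (2.27% of all tested genes) and the groups did not overlap in 36 of the 81 (9.93% of all tested genes). Without knockdown 3 the groups did not overlap in 47 of the 81 (10.1% of all tested genes), the median was -0.25 and 43.1% of all tested genes were below zero. Limma called none of the 81 in any of these fits, where it called 0.00835% of all genes without control 2, 0.0251% without control 1 and 0% without knockdown 3. Control 1 had the lowest median deviation of the controls (-0.09) and knockdown 3 the highest of the knockdown libraries (0.03). Leaving out either therefore moves the groups apart by construction. Without control 3, knockdown 1 and knockdown 2 the knockdown values lay below every control in 5, 6 and 4 of the 81. Without knockdown 2, 662 of all 11965 tested genes did so. That share is not given here without control 3 or knockdown 1.

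**Figure D3:**
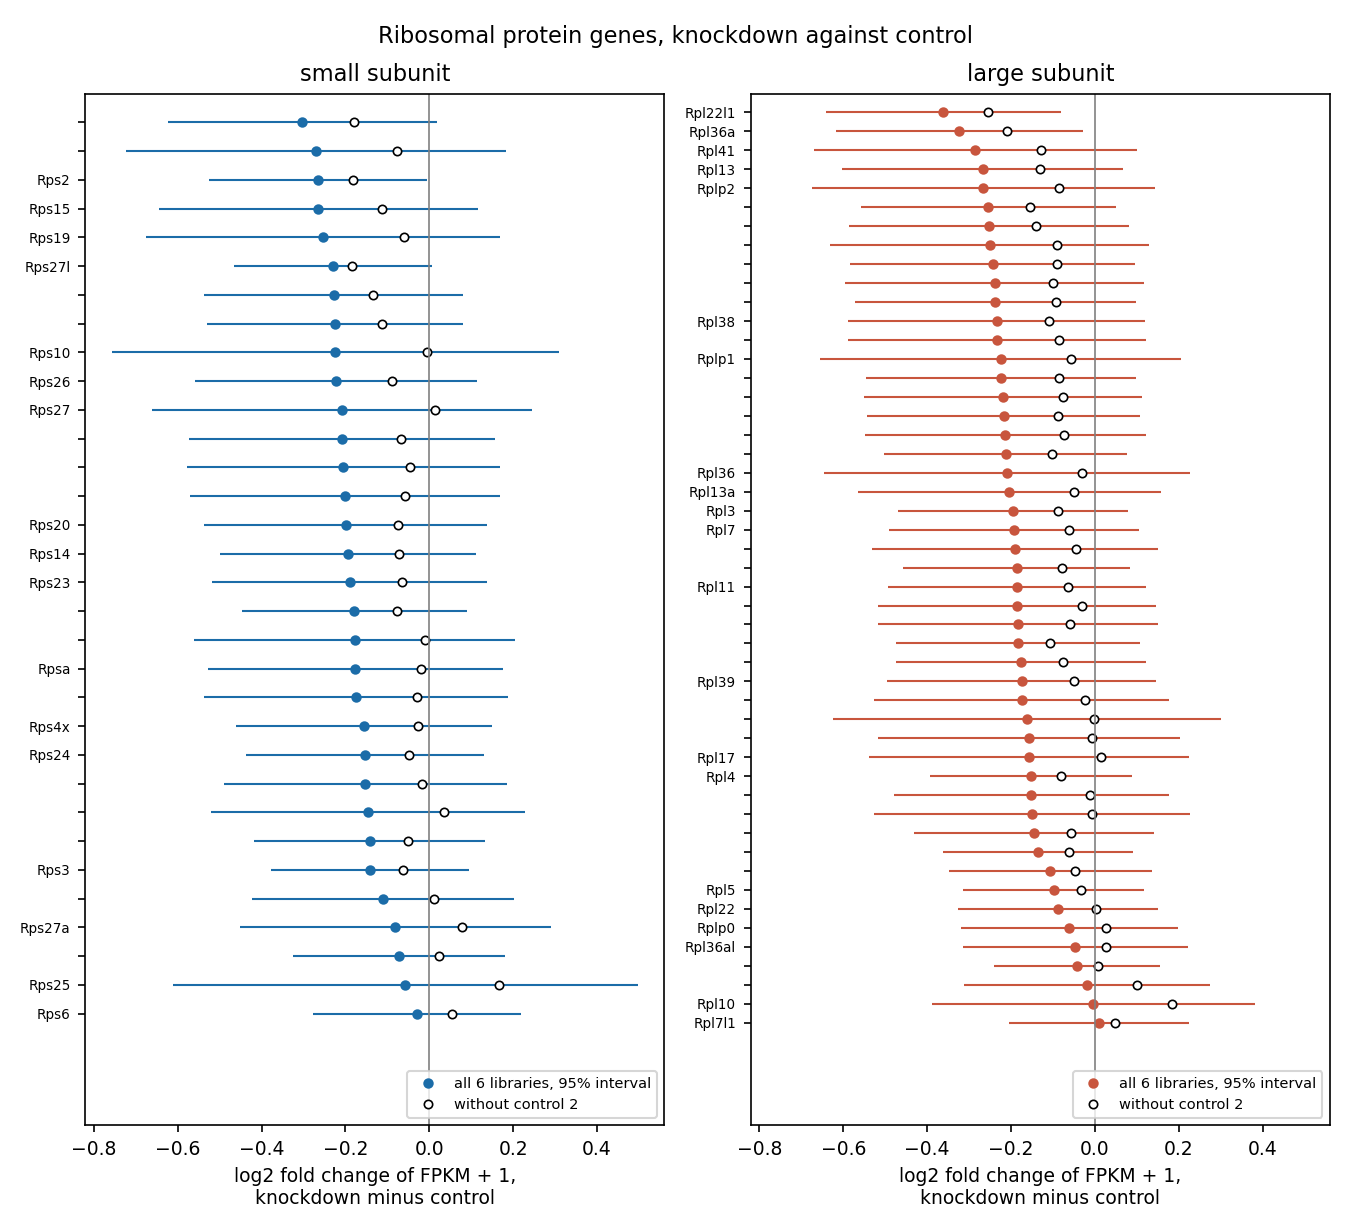
Log2 fold change of FPKM + 1, knockdown minus control (horizontal), of the 32 small and 49 large subunit genes tested (vertical, with part of the genes labelled); filled points are fits to all 6 libraries with their 95% intervals, open points the fits without control 2. Filled points run from -0.36 (Rpl22l1) to 0.01 (Rpl7l1), and most open points lie nearer to zero, with a median of -0.06; Rpl10, Rpl23, Rpl7l1, Rps25 and Rps6 lie farther from it, above zero.

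The 4 genes whose groups did not overlap (4.94% of the 81, against 3.47% of all tested genes) belonged to both subunits. Rpl22l1, the paralogue of the RNA-binding protein Rpl22, was at 23.5, 22.0 and 25.7 FPKM in knockdown 1, 2 and 3 and at 29.5, 35.8 and 27.5 FPKM in control 1, 2 and 3. On the log2 scale it differed by -0.36 (95% interval -0.64 to -0.08, limma adjusted p = 0.948), and without control 2 it was -0.25. Rpl36a, encoded on chromosome X, was at 46.0, 47.4 and 54.1 FPKM in the knockdown libraries and at 55.1, 72.4 and 58.6 FPKM in the controls. The log2 difference was -0.32 (95% interval -0.62 to -0.03, limma adjusted p = 0.948), with a gap of about 1 FPKM between knockdown 3 and control 1. Rps2, which lines the entry channel of the messenger RNA, was at 140, 131 and 152 FPKM in knockdown 1, 2 and 3 and at 156, 190 and 164 FPKM in control 1, 2 and 3. The fold change of Rps2 was -0.27 on the log2 scale (95% interval -0.53 to -0.01, limma adjusted p = 0.948). Rpl4, which reaches into the exit tunnel, was at 268, 256 and 281 FPKM in the knockdown libraries and at 284, 329 and 284 FPKM in the controls, with a log2 fold change of -0.15 (95% interval -0.39 to 0.09). In all 4 genes knockdown 3 was the highest knockdown library and control 2 the highest control.

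Among the other small subunit genes, Rps27l, the paralogue of Rps27 and a p53 target in human cells, was at 14.8, 15.4 and 17.6 FPKM in the knockdown libraries and at 17.5, 20.2 and 18.96 FPKM in the controls (log2 fold change -0.23). Its groups overlapped by knockdown 3 and control 1. Rps19, the gene most often mutated in Diamond-Blackfan anaemia, had a log2 fold change of -0.25, and Rps26, of the mRNA exit channel, one of -0.22. Rps23, of the decoding centre, stood at -0.19, Rps14, of the platform, at -0.19, Rpsa, also known as a laminin receptor, at -0.18, and Rps3, of the entry channel, at -0.14 on the same scale. None of these small subunit genes had an unadjusted p under 0.05.

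Rps6, the target of the S6 kinases downstream of mTOR, was nearly level between the groups. It was at 179, 171 and 191 FPKM in knockdown 1, 2 and 3 and at 173, 207 and 174 FPKM in control 1, 2 and 3, with a log2 fold change of -0.03 (95% interval -0.28 to 0.22). Rps27a, made as a fusion with ubiquitin, was at 122, 99.3 and 116 FPKM in the knockdown libraries and at 102, 148 and 109 FPKM in the controls, with a log2 fold change of -0.08. Rps25, which some viral messages need for their translation, departed most from the median member: it was at 63.5, 63.4 and 73.4 FPKM in knockdown 1, 2 and 3 and at 47.2, 94.9 and 74.4 FPKM in control 1, 2 and 3. Both the highest and the lowest of its values were controls.

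In the large subunit, the stalk protein Rplp2 was at 70.9, 72.8 and 86.2 FPKM in knockdown 1, 2 and 3 and at 75.05, 118 and 87.7 FPKM in control 1, 2 and 3 (log2 fold change -0.27). The fold change was -0.22 for Rplp1 and -0.06 for Rplp0, the stalk base, and the groups overlapped in all 3. Rpl5 and Rpl11, which with 5S RNA can bind Mdm2 and so stabilise p53, had log2 fold changes of -0.10 and -0.19. Rpl3, near the peptidyl transferase centre, stood at -0.19, Rpl38, needed for the translation of Hox messages in mouse embryos, at -0.23, Rpl13a, known for translational silencing in myeloid cells, at -0.20, and Rpl41, the smallest protein of the ribosome, at -0.29. Rpl13 was at -0.27. None of these had an unadjusted p under 0.05.

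Rpl10, an X-linked protein that joins the large subunit late in the cytoplasm, was the 1 of 81 members whose groups parted upward without control 2. Over all tested genes, 7.07% did so. Rpl10 was at 63.6, 58.9 and 65.9 FPKM in knockdown 1, 2 and 3 and at 52.7, 81.8 and 57.7 FPKM in control 1, 2 and 3. Its log2 fold change was -0.004 (95% interval -0.39 to 0.38) with all libraries and 0.18 (95% interval -0.06 to 0.42) without control 2. The other X-linked members were Rps4x and Rpl39, with log2 fold changes of -0.16 and -0.17, beside Rpl36a above.

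**Figure D4:**
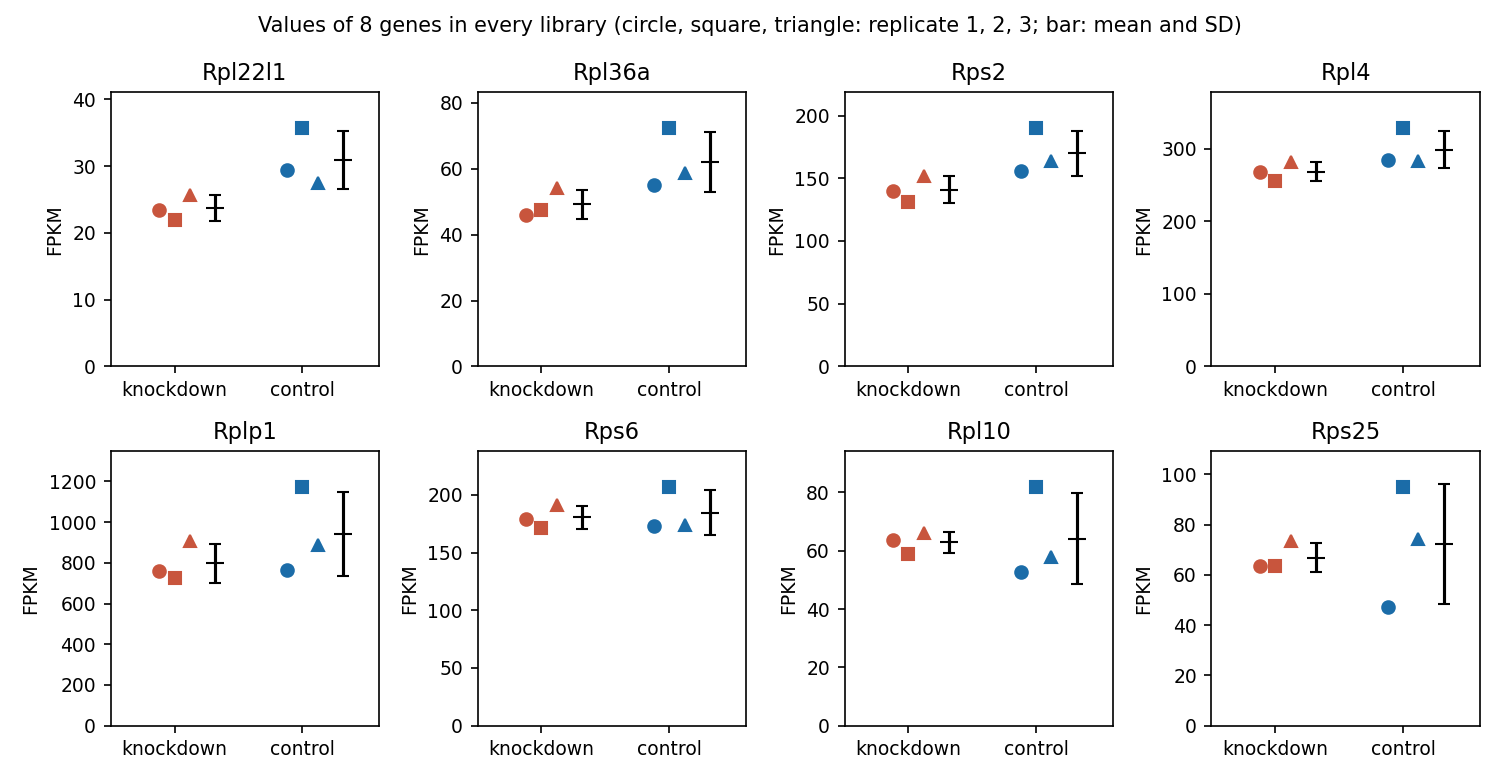
FPKM (vertical, from zero) of 8 ribosomal protein genes in knockdown and control libraries; circle, square and triangle are replicates 1, 2 and 3, and bars give mean and SD (n = 3 each). In Rpl22l1, Rpl36a, Rps2 and Rpl4 every knockdown point lies below every control point, while in Rplp1, Rps6, Rpl10 and Rps25 the groups overlap.

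Paralogues were set beside their partners. Rpl22 was at 34.1, 33.1 and 33.9 FPKM in knockdown 1, 2 and 3 and at 32.6, 40.9 and 34.7 FPKM in control 1, 2 and 3 (log2 fold change -0.09), against -0.36 for Rpl22l1. Rpl36al was at 50.7, 54.1 and 59.7 FPKM in the knockdown libraries and at 49.7, 62.7 and 58.0 FPKM in the controls (-0.05), against -0.32 for Rpl36a. The difference between paralogue and partner was not tested. Rps27 stood at -0.21 beside Rps27l at -0.23. Rpl7l1 was at 16.4, 17.9 and 15.9 FPKM in knockdown 1, 2 and 3 and at 15.3, 17.6 and 16.9 FPKM in control 1, 2 and 3 (0.01, 95% interval -0.21 to 0.22), beside Rpl7 at -0.19. Rpl3l, the muscle paralogue of Rpl3, was listed at 0.188, 0.391 and 0.249 FPKM in the knockdown libraries and at 0.769, 0.570 and 0.276 FPKM in the controls, too low to be tested.

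Most members followed one profile over the libraries. The SD over libraries of a tested gene's deviation from the median member ran from 0.016 (Rpl32) to 0.208 (Rps25) on the log2 scale. Rps25, Rpl7l1 and Rps10 departed most. Rps10, a beak protein ubiquitinated on stalled ribosomes, was at 84.4, 76.7 and 108 FPKM in knockdown 1, 2 and 3 and at 77.7, 141 and 102 FPKM in control 1, 2 and 3, so it followed the profile with a wider swing.

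The profile varied with transcript length, among these genes and among all others. The leading transcript, the listed one with the highest mean FPKM, had a median length of 799 bases in the 81 genes and of 2950 bases over all tested genes. Among genes that encode no cytosolic ribosomal protein, the median log2 fold change was -0.12 for the 319 with a leading transcript under 700 bases, -0.09 for 514 of 700 to under 1000 bases and 0.09 for 3738 of 4000 bases or more. The fold change was below zero in 78.1% of the first class, 76.7% of the second and 24.9% of the last. Ribosomal protein genes in the first and second classes had medians of -0.21 (31 genes) and -0.18 (25 genes). Among other genes with a mean of at least 50 FPKM, the medians in these classes were -0.17 (70 genes, 97.1% below zero) and -0.13 (81 genes, 88.9% below zero). The libraries took part unequally. Other genes under 700 bases deviated by a median of -0.13, -0.11 and 0.07 in knockdown 1, 2 and 3 and of -0.07, 0.20 and 0.08 in control 1, 2 and 3, on the log2 scale. Ribosomal protein genes of that length deviated by -0.15, -0.21 and 0.03 in the knockdown libraries and by -0.11, 0.38 and 0.04 in the controls. Control 2 was highest in both. Control 1 lay on the side of knockdown 1 and 2 in both, and knockdown 3 on that of control 2 and 3, so the groups overlapped. The excess of control 2 over the mean of the other controls was 0.42 in ribosomal protein genes of that length and 0.18 in the other genes. In other genes of that length with a mean of at least 50 FPKM it was 0.27. Across the 81 genes, Spearman's rho between length and that excess was -0.39, a description over genes that share libraries. The part of length in the group difference was not tested.

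**Figure D5:**
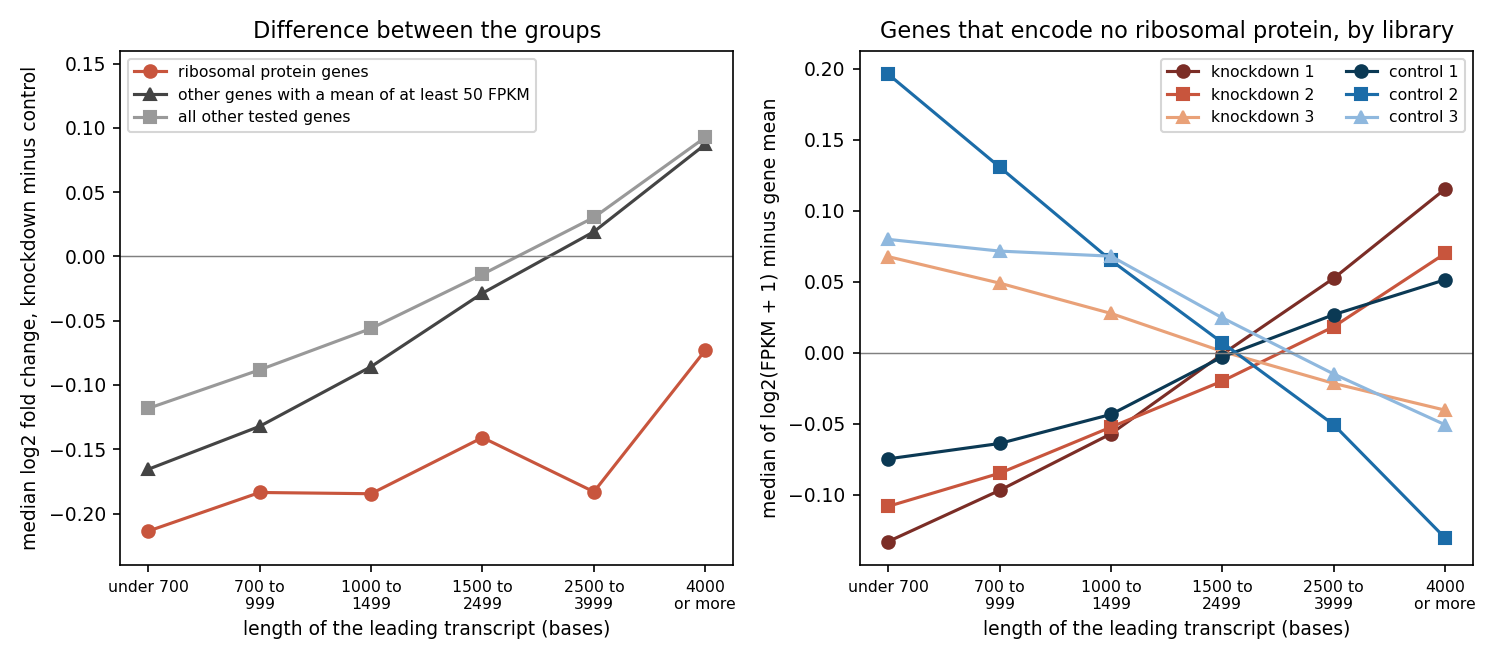
Left, the median log2 fold change, knockdown minus control (vertical), by length class of the leading transcript in bases (horizontal), for ribosomal protein genes (circles), other genes with a mean of at least 50 FPKM (triangles) and all other tested genes (squares); right, the median deviation of all other genes from their own mean in each library. The median of all other genes runs from -0.12 in the shortest class to 0.09 in the longest, and control 2 has the steepest line on the right.

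Further lists of genes differed between the libraries, some but not all with their highest sum in control 2. Of 8 erythrocyte genes 6 were listed, and their summed level was 341 to 621 FPKM in knockdown libraries and 413 to 1687 FPKM in controls, with 1687 FPKM in control 2 and 562 FPKM in the next control. Of 7 choroid plexus genes 2 were listed, Ttr and Clic6, with sums of 1.11 to 2.97 FPKM in knockdown libraries and 2.24 to 15.2 FPKM in controls, highest in control 2. That peak was mainly Ttr, at 12.9 FPKM in control 2. Clic6 was at 2.27 FPKM in control 2 and at 2.07 FPKM in knockdown 3 (log2 fold change 0.08). Striatal genes summed to 604 to 851 FPKM in knockdown libraries and to 378 to 1440 FPKM in controls, highest in control 2. Meningeal genes summed to 4.38 to 7.98 FPKM in knockdown libraries and to 5.03 to 13.8 FPKM in controls, also highest in control 2. Erythrocyte Bpgm was highest in knockdown 3 (22.7 FPKM) and striatal Pde10a in knockdown 2 (29.9 FPKM). The other listed erythrocyte and striatal genes were highest in control 2. Of 41 nuclear oxidative phosphorylation genes, 38 were tested, and all 38 had a negative fold change (median -0.15, and -0.06 without control 2). The 12 neuron markers were all listed, with sums of 1181 to 1314 FPKM in knockdown libraries and 1092 to 1537 FPKM in controls, highest in control 3. The 10 oligodendrocyte markers summed to 1427 to 1926 FPKM in knockdown libraries and 1201 to 1534 FPKM in controls, lowest in control 2. Of these 10, 0 had a negative fold change, also without control 2 (median 0.32, and 0.23 without control 2). An unadjusted limma p under 0.05 with a higher level was reached by 2, Ermn and Mag, and by 247 of all 11961 tested genes. The groups overlapped in all 10. The 8 endothelial markers summed to 70.3 to 81.9 FPKM and 69.3 to 90.2 FPKM, lowest in control 2 and highest in control 3. The 10 astrocyte markers summed to 429 to 499 FPKM and 433 to 469 FPKM, highest in knockdown 3. Of these 10, 4 had a negative fold change, Aldoc (-0.22) among them. In 2, Gja1 (0.36) and Slc1a2 (0.30), every knockdown value lay above every control, as in 532 of all 11961 tested genes. Both had an unadjusted limma p under 0.05 (limma adjusted p = 0.948). The 10 microglia markers summed to 232 to 256 FPKM and 230 to 279 FPKM, highest in control 2. Of these 10, 7 had a negative fold change. Microglia Cx3cr1 went the other way, at 8.82, 8.23 and 3.94 FPKM in knockdown 1, 2 and 3. In control 1, 2 and 3 it was at 2.90, 2.86 and 2.02 FPKM (limma adjusted p = 0.948). The part of these in the ribosomal protein result was not tested.

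Genes that act with the ribosomal proteins were described alike. Fau, which encodes a ribosomal protein as a fusion with a ubiquitin-like protein and falls outside the symbol rule, was at 214, 205 and 258 FPKM in knockdown 1, 2 and 3 and at 217, 319 and 253 FPKM in control 1, 2 and 3 (log2 fold change -0.21). Rack1, a scaffold on the small subunit, was at 30.9, 27.1 and 33.8 FPKM in the knockdown libraries and at 27.3, 35.3 and 30.5 FPKM in the controls (-0.02). Of 18 other genes known for TOP messages, such as elongation factors, 15 had a negative fold change, with a median of -0.07, and none had an unadjusted p under 0.05; the smallest was that of Eef1b2 (-0.21). Of 44 tested ribosome assembly genes, 25 were negative (median -0.03), where 44.3% of all tested genes were. Of the 44, 1, the small subunit maturation factor Nob1, had an unadjusted limma p under 0.05 with a lower level. Over all tested genes, 1.5% reached that mark. Nob1 was at 7.27, 7.58 and 6.85 FPKM in knockdown 1, 2 and 3 and at 8.18, 8.64 and 10.03 FPKM in control 1, 2 and 3 (log2 fold change -0.27, limma adjusted p = 0.948). Of 20 genes of mTOR signalling and ribosomal protein gene control, 6 were negative (median 0.05), and of 11 tested genes of p53 and ribosome quality control, 6 were (median -0.02), with no unadjusted p under 0.05 in either list. Of 78 mitochondrial ribosomal protein genes, 64 were negative, with a median of -0.09 (-0.04 without control 2). None of the genes on these lists was called.

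Members with and without a start-site feature had similar median fold changes. The 24 genes with a run of at least 6 C or T at the start had a median log2 fold change of -0.20 and the 37 tested genes without one a median of -0.18. Genes with CCGGAAG had a median of -0.19 (23 genes) and those without it one of -0.18 (38 genes). Control 2 stood at 1.33 times the mean of the other controls in the median gene with such a run and at 1.29 times in the median gene without it. These are descriptions of the windows searched, and no difference between them was tested. The annotated start lay within 5 bases of the leading transcript's 5′ end in 19 of the 62 genes. Genes counted without a run may therefore carry one, so this split cannot tell whether the tract matters.

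At the level of single transcripts no ribosomal protein transcript passed with all 6 libraries. The tables listed 207 transcripts of the 82 genes, 1 each for 33 genes and up to 7 for 1 gene, and 195 were tested among 18476. Limma called 0 of the 195, where 0.103% of all transcripts were called, and 8 had an unadjusted p under 0.05 with a lower level (1.87% of all tested transcripts). The knockdown values lay below every control in 18 of the 195, where 4.22% of all tested transcripts did. The log2 fold change was below zero in 156 of the 195, against 47.3% of all tested transcripts. The smallest p was that of Rps2-208, at 102, 79.8 and 96.0 FPKM in knockdown 1, 2 and 3 and at 172, 144 and 170 FPKM in control 1, 2 and 3. Rps2-208 differed by -0.80 on the log2 scale (95% interval -1.12 to -0.49, limma adjusted p = 0.226), and here control 2 was the lowest control. Rps2-201, the next transcript of the gene, was at 96.9, 93.2 and 103 FPKM in the knockdown libraries and at 85.1, 97.6 and 90.0 FPKM in the controls. Rps2-208 was the leading transcript in every control and in knockdown 1, and Rps2-201 in knockdown 2 and 3.

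Without control 2, limma called 2 ribosomal protein transcripts, where 0.173% of all transcripts were called. Rpl10-211 was at 0.400, 0.276 and 0.443 FPKM in knockdown 1, 2 and 3 and at 17.9, 0.451 and 20.03 FPKM in control 1, 2 and 3. Its log2 fold change was -2.60 with all libraries (limma adjusted p = 0.950) and -3.86 without control 2 (limma adjusted p = 0.017). Rplp0-204 was at 0.189, 0.0452 and 0.0899 FPKM in the knockdown libraries and at 25.1, 0.0933 and 40.8 FPKM in the controls, with -3.26 (limma adjusted p = 0.950) and -4.90 (0.0224). In both transcripts control 2 lay with the knockdown libraries, not with the other controls. Rpl10-211 held 0.264%, 0.197% and 0.273% of its gene's transcript sum in knockdown 1, 2 and 3 and 14.1%, 0.229% and 14.1% in control 1, 2 and 3. Rplp0-204 held 0.120%, 0.0321% and 0.0567% in the knockdown libraries and 16.2%, 0.0520% and 24.2% in the controls. The gene total of Rpl10 is given above. That of Rplp0 was 128, 115 and 130 FPKM in knockdown 1, 2 and 3 and 118, 146 and 126 FPKM in control 1, 2 and 3.

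The leading transcript was not the same in every library for 8 genes, among them Rpl10, Rpl35a, Rpl38, Rps2, Rps10, Rps27a and Rps28. In Rps10, Rps10-208 was at 205, 181 and 301 FPKM in knockdown 1, 2 and 3 and at 7.60, 382 and 205 FPKM in control 1, 2 and 3, while Rps10-203 was at 86.7, 79.8 and 79.9 FPKM in the knockdown libraries and at 201, 107 and 74.8 FPKM in the controls. Control 1 alone had Rps10-203 as its leading transcript. In Rpl38, Rpl38-204 was at 377, 191 and 230 FPKM in the knockdown libraries and at 182, 558 and 257 FPKM in the controls, and it led in knockdown 1 and control 2. The gene total of Rpl38 was 384, 364 and 432 FPKM in knockdown 1, 2 and 3 and 387, 550 and 463 FPKM in control 1, 2 and 3.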

How the data were processed

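The FPKM values of 13348 genes and 24676 transcripts were used as deposited by the authors, per the file headers. The submitters' processing notes name FastQC, cutadapt, HISAT2 and StringTie; versions, genome build and annotation are not given in the sources used here. The kit preserves strand, per the labels' protocols. An empty line in each table was skipped. All 82 gene identifiers matched GENCODE M21 (GRCm38) with the version ignored, 70 with the same coordinates; lengths and pseudogene names come from it.

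For the test, FPKM + 1 was taken to log2 and limma 3.58.1 (R 4.3.3) was fitted to every feature averaging 1 FPKM or more, with an intensity trend and Benjamini-Hochberg adjustment at 0.05. The fit was tested on simulated data. FPKM gives no read depth, so no counting interval is given. Fold changes on this scale understate those of low genes.

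The members and lists were chosen with earlier results of these data known. Named genes were the 4 highest and lowest, the 4 with the smallest p per subunit and direction, paralogues with partners, genes with a listed role, the 4 that depart most from the median member, and up to 3 per other list. Rpl23, Rpl27a, Rpl32, Rpl35a and Rps28, outside that rule, were named after their values were seen, and the length classes and start-site features were chosen then too. Alternatives covered the pseudocount, filter, scaling, variance model, library weights, replicate block, transcript sums and each library left out. A few genes that the rule selects are not reported by name here.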

Additional observations from a re-analysis of the deposited data

How the results depend on the processing

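Over 16 other settings, none of the 81 ribosomal protein genes was called. Their median log2 fold change was -0.13 with all libraries brought to a common sum, -0.12 after quantile normalization and -0.22 with median-of-ratios factors, and ran from -0.29 (without control 1) to -0.06 (without control 2) when 1 library was left out. The median of all tested genes moved by less than 0.1 (log2) under each scaling.

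Over all genes, limma called 0 (427 had an unadjusted p under 0.05), 1 with the common sum, 3 with array weights, 4 as sums of listed transcripts and 0 to 3 without 1 library. Over all transcripts it called 19, but 8 with a minimum mean of 5 FPKM, 44 without the intensity trend, 0 with the replicate block and 11 (without knockdown 2) to 32 (without control 2) without 1 library. Ribosomal protein transcripts called numbered 0 to 2 without 1 library, the 2 being those without control 2.

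Of 672 fold changes of 42 named genes under another setting, 25 changed sign, in 10 genes. With the common sum these were Rpl10 (0.055), Rpl36al (0.013), Rps25 (0.0021) and Rps6 (0.031); after quantile normalization Rpl10 (0.044), Rpl17 (0.012) and Rps6 (0.045); with array weights Rpl10 (0.025) and Rps25 (0.012); and with median-of-ratios factors Rpl7l1 (-0.016). When 1 library was left out, values ran from the fit without control 1 to that without control 2: -0.13 to 0.18 for Rpl10, -0.28 to 0.016 for Rpl17, -0.16 to 0.0032 for Rpl22, -0.14 to 0.027 for Rpl36al, -0.044 to 0.049 for Rpl7l1, -0.13 to 0.026 for Rplp0, -0.33 to 0.17 for Rps25, -0.34 to 0.013 for Rps27, -0.18 to 0.079 for Rps27a and -0.074 to 0.054 for Rps6. The cause was not tested.

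With the replicate block, 80 of 81 fold changes were below zero, as without it, and 0 genes were called (552 had an unadjusted p under 0.05). Same-numbered libraries had correlations of 0.18, -0.13 and -0.07 between their deviations over genes, so the numbers were not taken to pair the samples.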
